A study of Drosophila melanogaster with 2 samples.

Results

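Chromatin immunoprecipitation and sequencing of the GFP-tagged protein CG17806 in fruit fly pupae gave 7645 peaks that were reproducible between replicates, and 1546 of them (20.2%) lay deep inside genes. These far intronic peaks had a summit inside a gene, in no annotated exon, over 500 bp from every annotated start site and over 5000 bp from the nearest start site of a protein-coding gene. Within the IDR list, which itself holds the strongest pooled peaks, the rule used position alone, with gene models from Ensembl and transposable elements left out. Both biological replicates were whole Drosophila melanogaster pupae aged 24 hours from 1 transgenic line that carries CG17806 with GFP at its C-terminal end, whose sonicated chromatin was pulled down with an anti-GFP antibody. They form 1 group with no second condition, all tissues are pooled, and the tagged copy is the only form of the protein measured. The reproducible list was made by the authors with the irreproducible discovery rate (IDR), which compares the rank of each peak in the replicates. The values deposited are peak lists without read counts, so depth is unknown. Each peak has a signal given by the authors with no stated unit, which serves here for ranks inside 1 list and nothing else.

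CG17806 is a protein of the zinc-finger family, whose members commonly bind DNA through short finger domains. Introns of the fly genome hold many enhancers, stretches of DNA that bind transcription factors and act on a start site from a distance, and long first introns of developmental regulators are rich in them. A ChIP peak records where fragments bound by the tagged protein pile up, and its summit is the base with the most signal. Such a peak can come from direct contact with DNA or from contact through another protein, and does not by itself identify a target gene.

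The sequences below are the 100 bases around the summit of the 6 strongest far intronic peaks that hold the TATA hexamer and of the 2 strongest that lack it, with 1 chromosome arm not shown. They are printed 5′ to 3′ on the plus strand of dm6, and capitals mark the hexamer TATAAA or its reverse complement TTTATA. They are shown because stretches rich in A and T at the summit, with or without the hexamer, are the main property that these peaks share.
CG32486, chr3L:3060757-3060856: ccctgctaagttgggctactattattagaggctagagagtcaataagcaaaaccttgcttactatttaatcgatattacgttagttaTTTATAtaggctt
Eip75B, chr3L:18009135-18009234: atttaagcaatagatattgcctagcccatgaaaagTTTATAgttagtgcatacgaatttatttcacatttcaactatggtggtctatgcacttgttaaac
pnt, chr3R:23326437-23326536: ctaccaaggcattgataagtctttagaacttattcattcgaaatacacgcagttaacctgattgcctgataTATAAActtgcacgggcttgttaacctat
Hr4, chrX:1947703-1947802: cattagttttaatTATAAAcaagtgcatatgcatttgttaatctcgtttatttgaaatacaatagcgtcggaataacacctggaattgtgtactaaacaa
trx, chr3R:14278007-14278106: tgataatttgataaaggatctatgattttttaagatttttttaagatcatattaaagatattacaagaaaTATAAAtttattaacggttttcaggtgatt
dlp, chr3L:14652675-14652774: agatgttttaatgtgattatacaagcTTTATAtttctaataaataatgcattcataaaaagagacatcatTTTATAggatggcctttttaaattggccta
dpp, without the hexamer, chr2L:2433589-2433688: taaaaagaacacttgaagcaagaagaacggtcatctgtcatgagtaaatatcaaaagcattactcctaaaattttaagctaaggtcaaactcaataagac
Hr4, without the hexamer, chrX:1951857-1951956: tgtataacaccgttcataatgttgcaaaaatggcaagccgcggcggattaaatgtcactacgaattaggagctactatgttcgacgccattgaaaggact
The trx window had 81.0% A or T, the highest of the 8. The Hr4 window without the hexamer had 57.0%, the lowest. The dlp window held the hexamer in 2 places.

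The far intronic peaks ran through most of the range of signal but were scarce among the strongest peaks. Their best rank in the IDR list was 70, their median rank 4058 and their worst 7634. The top 100 held 4 of them and the top 500 held 64, both below their share of 20.2% of the whole list. Cut into 4 equal parts by signal, the IDR list held 315, 407, 422 and 402 of them from the strongest part to the weakest. Their mean signal percentile, counted within the IDR list with the strongest peak highest, was 47.6, against 51.9 for the 2460 promoter peaks, those within 500 bp of any start site. This difference of -4.28 points (95% interval -6.17 to -2.39) passed the test (linear model with standard errors clustered by 100 kb, n = 1546 and n = 2460, adjusted p = 2.31e-05). Results for a replicate alone use its strongest 7645 peaks. In replicate 1 alone the difference was -1.34 points and did not pass (n = 1508 far intronic peaks, adjusted p = 0.251). Against the 1928 near intronic peaks, in introns at 5000 bp or less from a coding start site, the difference was -3.63 points (n = 1928, adjusted p = 5.65e-04). Against the 820 distal intergenic peaks, over 5000 bp from a coding start site and outside genes, it was -0.584 points (95% interval -3.25 to 2.08, n = 820, adjusted p = 0.834). These p-values were adjusted over 15 tests, 5 measures in 3 classes, and measure the spread between peaks, not between animals.

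Nearly all far intronic peaks were found in each replicate. A summit of the full list of 30000 peaks of replicate 1 lay within 100 bp of 1504 of them (97.3%) and one of replicate 2 of 1499 (97.0%). Both held for 1458 (94.3%), against 92.3% of all IDR peaks, while 46 were matched in replicate 1 alone, 41 in replicate 2 alone and 1 lacked a match. Since IDR selected peaks on these very lists, the shares only describe the selection. Over the 1458 peaks matched in both, the ranks in the replicates had a Spearman correlation of 0.796. It is given as a description, since IDR selected these peaks by their ranks in the replicates. Both ranks can also share the fragments' mappability and base content, which was not tested. The share found in both was 99.2% among the strongest 387 far intronic peaks and 86.8% among the weakest 386. The rule was met by 1508 of the strongest 7645 peaks of replicate 1 and by 1506 of those of replicate 2, near the 1546 of the IDR list.

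**Figure D1:**
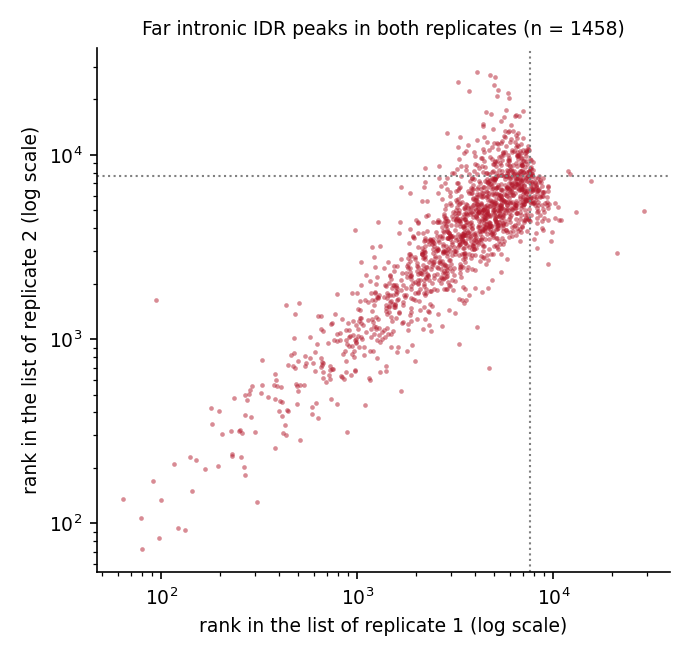
Rank of each far intronic peak in the full list of replicate 1 (horizontal) and of replicate 2 (vertical), both on log scales, for the 1458 found in both; rank 1 is the strongest. Each point is a peak, dotted lines mark rank 7645, and the points follow a band that widens toward weak peaks, with the dnr1 peak (94 and 1634) far off it.

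The hosts of the 15 strongest far intronic peaks are given in order of signal, with the rank in the IDR list and in the full list of each replicate. The peak of highest signal was in the first intron of dpp, which encodes a BMP-type ligand, on 2L from 2433440 to 2433880, with its summit 5267 bp from the dpp start site. It ranked 70 in the IDR list, 80 in replicate 1 and 73 in replicate 2. Next was a peak in Hr4, a nuclear receptor gene of the ecdysone response, on X from 1951723 to 1952100, which ranked 77, 64 and 136 in the same order. Its window of 57.0% A or T stood on flanks of 38.0%, so it was low in A and T for a far intronic summit but above its own surroundings.
A peak in CG42238 on 2L from 21009322 to 21009738 ranked 82, 79 and 107, and its summit was 40555 bp from the nearest coding start site. A peak in Raf, the kinase below Ras, on X from 2300521 to 2300900 ranked 85, 97 and 83. All 4 peaks were thus among the strongest 136 of each replicate.
Psc, a Polycomb group gene, had a peak on 2R from 12975379 to 12975778 that ranked 103, 91 and 169. CG32486 had one on 3L from 3060581 to 3060983 that ranked 106, 122 and 94, nearer to the start site of CG16753 at 5728 bp than to its own. Eip75B, the ecdysone-induced nuclear receptor gene E75, had one on 3L from 18008998 to 18009365 that ranked 109, 100 and 134. The sequence of this window, printed above, carries 1 TATA hexamer.
On 3L from 19903092 to 19903493 a peak lay where Mi-2, a nucleosome remodeller gene, and Su(Tpl), which encodes a transcription elongation factor, overlap, and it ranked 111, 132 and 92. Snoo, which encodes a cofactor of Smad proteins, had a peak that ranked 137, 143 and 149. Prp16, a splicing helicase gene, had one at 140, 116 and 211. The summits in Mi-2 and Snoo had 70.0% and 66.0% A or T.
The trithorax group gene tara had a peak at 158, 141 and 230, and JIL-1, which encodes a histone H3 kinase, one at 169, 151 and 222. The overlap of nudC and CG13024 held one at 171, 167 and 198, and pnt, an Ets factor gene of the EGFR pathway, one at 194, 195 and 204. The last of the 15 stood apart between the replicates. It lay in dnr1, a gene of immune regulation, on 2R from 22569724 to 22570423, and ranked 203 in the IDR list, 94 in replicate 1 and 1634 in replicate 2. It was also the only one of the 15 with fewer A and T at the summit (48.0%) than in its flanks (51.0%).

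The summits were rich in A and T and stood on surroundings poor in them. A and T together made up 69.6% ± 6.68 (SD, n = 1546 peaks) of the 100 bases around the summit and, in the flanks centred 250 bp to each side 53.3% ± 7.99, with a mean difference of 16.3 points (SD 11.2). The summit was higher in 1416 peaks, lower in 112 and equal in 18, so that 91.6% were higher, against 87.1% of all IDR peaks (exact sign test, two-sided, p = 7.55e-288; neighbouring peaks are not independent). All the sequence that meets the position rule (the eligible sequence) had 59.8% A or T, which lies between the summits and their flanks. The range over single summits ran from 37% to 89%, with 13 below 50% and 74 at 80% or more. The peaks that meet the rule among the strongest of replicate 1 had 69.4% at the summit and those of replicate 2 had 69.0%, and their flanks 53.4% and 52.9%.
The share of A and T went down with signal. Over 4 equal parts of the far intronic peaks, from the strongest to the weakest, the means were 71.1%, 69.7%, 69.4% and 68.1%, with SDs of 5.59, 6.82, 6.19 and 7.63 points. Among the 4793 pooled peaks that meet the rule but are outside the IDR list, the mean was 60.8% (SD 9.49), near that of the sequence as a whole. Of these weaker peaks 29.1% were found in both replicates, and their deposited −log10 q went down to 0.405.

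**Figure D2:**
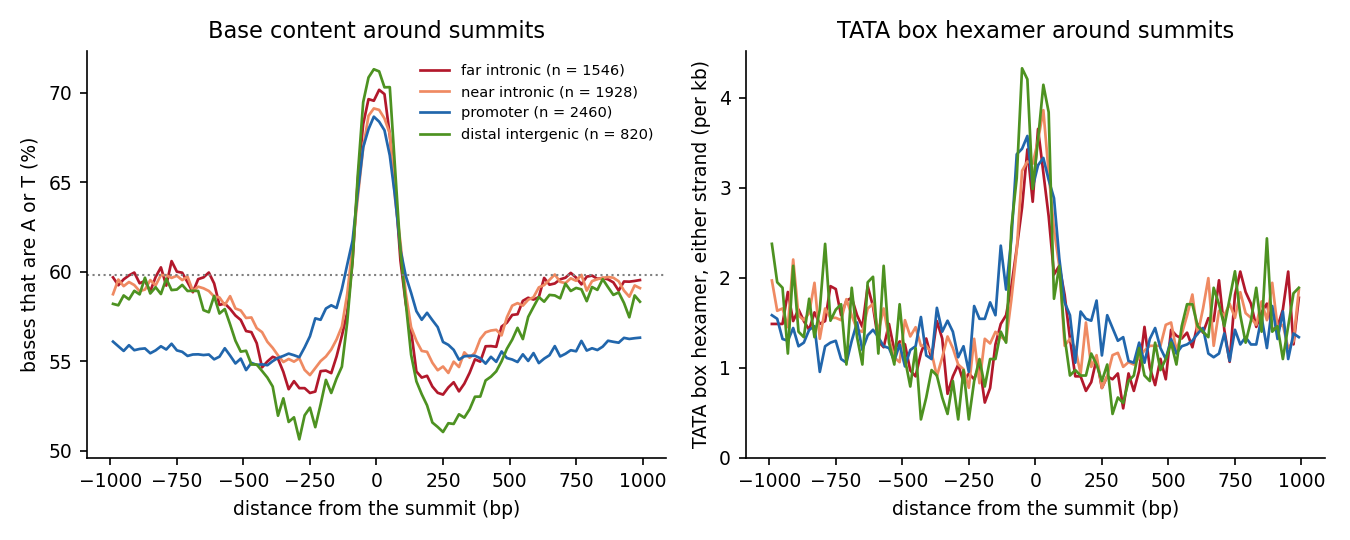
Share of bases that are A or T (left, percent) and starts of the TATA hexamer on either strand per kb (right) in bins of 20 bp against distance from the summit in bp, for far intronic, near intronic, promoter and distal intergenic IDR peaks; the dotted line is the 59.8% of all sequence meeting the rule. The far intronic curve peaks at 70.2% and dips to 53.1% at 250 bp, and the hexamer rises to 3.66 per kb at the summit.

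The profile of base content showed a narrow peak with a trough on each side. Bins of 20 bp were above the 59.8% of the eligible sequence from 100 bp before to 100 bp after the summit and lowest at 250 bp, with 53.1%. At the ends of the window shown, the mean was 59.5%. At promoter peaks the curve had its lowest bin at 54.5% and stayed close to it out to the ends of the window.
Against other classes the contrast between summit and flanks was larger than at promoters and smaller than between genes. It exceeded that of promoter peaks by 4.55 points (95% interval 3.71 to 5.38, linear model with clustered errors, n = 1546 and n = 2460, adjusted p = 2.93e-25) and that of near intronic peaks by 2.17 points (1.41 to 2.94, adjusted p = 1.20e-07). It was below that of distal intergenic peaks, with a difference of -2.76 points (-3.79 to -1.73, n = 820, adjusted p = 4.96e-07). Replicate 1 alone gave 6.02, 2.53 and -2.58 points for these 3 contrasts, and replicate 2 alone 3.49, 1.81 and -2.33, all past the threshold.
The base content of the summit itself differed less. It was 1.53 points above promoter peaks (n = 1546 and n = 2460, adjusted p = 1.20e-07), 0.936 above near intronic peaks (adjusted p = 4.68e-04) and differed by -1.21 from distal intergenic peaks (adjusted p = 0.00157). In replicate 2 alone these were 0.153, 0.454 and -0.773 points and none passed (adjusted p of 0.554, 0.110 and 0.0648). The 3 calls on summit content thus rest on the list used.

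The TATA hexamer was found within 50 bp of 380 far intronic summits (24.6%, Wilson 95% interval 22.5 to 26.8) and in the flanks of 118 (7.63%). TATAAA is the core of the TATA box of promoters, where the TATA-binding protein sits some way before a start site, yet these summits are far from any annotated one. The difference of 16.95 points passed the test (exact sign test, two-sided, adjusted over 22 motifs p = 5.89e-36). Among all IDR peaks 25.1% held the hexamer, so the share at far intronic summits was near that background. Differences from promoter, near intronic and distal intergenic peaks were -0.177, -0.524 and -3.10 points with adjusted p of 0.905, 0.838 and 0.180, and the widest interval ran from -7.14 to 0.931.
Several other words of the same letters rose more. There are 15 hexamers with the letters of TATAAA in any order, each counted with its reverse complement, and TATAAA was number 9 of them by its difference. The first was AAATAT, in 36.1% of summits and 10.8% of flanks, and the lowest, AATTAA, differed by 12.4 points. In windows of 100 bases that tile the eligible sequence away from pooled summits, weighted to the A and T content of the far intronic summits, 24.6% held TATAAA, which equals the share at the summits to 3 digits. Without that weighting 12.8% of the 246928 windows held it.
Words of 7 bases were ranked next. The 5 words with the largest excess at the 500 far intronic summits on chromosome 2 were TTTAAAA in first place, followed by TTAAAAA and then by AAATAAA, with ATTTTAA as number 4 and AAAATAT as number 5, and all 5 passed on the other 1046 (exact sign tests adjusted over 8186 words). TTTAAAA, for one, was at 14.5% of those summits and 2.10% of their flanks. In the weighted windows the 5 words were in 13.8%, 15.6%, 21.3%, 13.7% and 17.5%, against 15.01%, 14.7%, 18.05%, 13.6% and 17.7% of all far intronic summits.

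**Figure D3:**
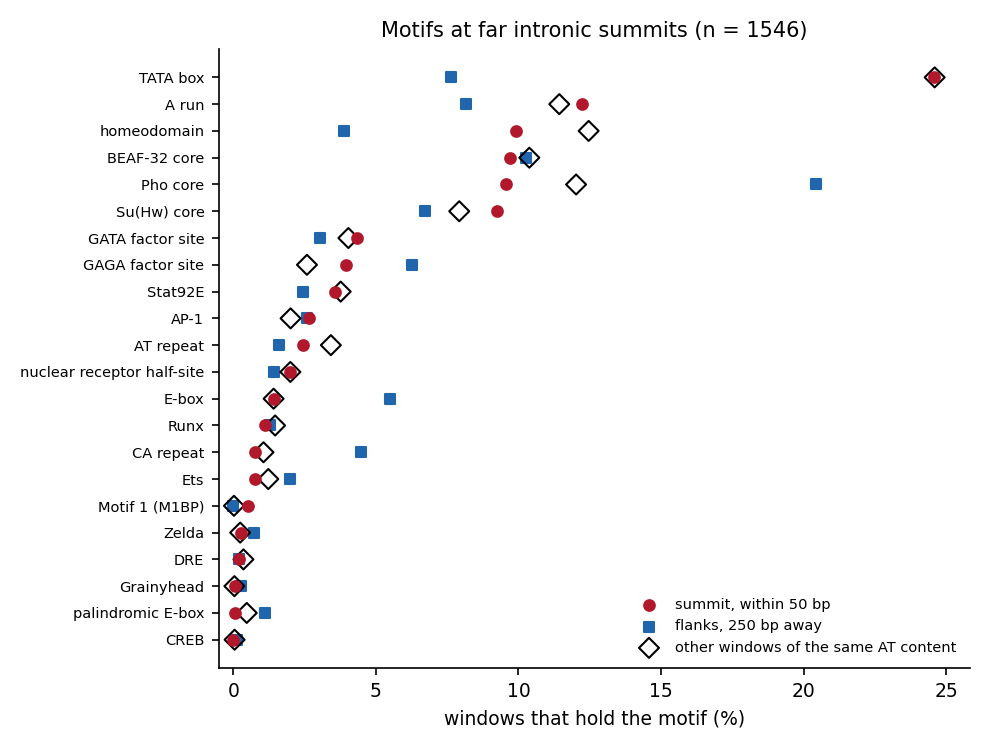
Percent of windows that hold each of 22 motifs within 50 bp of the 1546 far intronic summits (red circles), in their flanks (blue squares) and in other eligible windows weighted to the same A and T content (open diamonds). The circle and diamond of the TATA box coincide at 24.6%, while Motif 1 stands at 0.518% against 0.0258%.

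Of the 22 motifs, searched on both strands, 5 were higher at the summit than in the flanks and 6 were lower. Across all IDR peaks, which include the far intronic ones, each of these motifs differed in the same direction. These directions are thus not particular to far intronic peaks. Whether far intronic summits differ from other classes was tested for TATAAA alone. Beside TATAAA, the higher ones were a run of 8 A (AAAAAAAA), the homeodomain core TAATTA, a core of the insulator protein Su(Hw) (TGCATA) and Motif 1 (GGTCACACT), the site of the promoter factor M1BP. The run of A was in 12.2% of summits and 8.15% of flanks, a call lost in the strongest 1911 IDR peaks (adjusted p of 0.122), and TAATTA in 9.90% and 3.88%. In the weighted windows they were in 11.4% and 12.5%, so that TAATTA had a lower share at the summits than in other sequence equally rich in A and T. At the summits of all IDR peaks the run of A was in 10.19% and TAATTA in 10.87%.
The Su(Hw) core was in 9.25% of summits (7.91 to 10.8), 6.73% of flanks and 7.92% of the weighted windows (exact sign test, adjusted p = 0.0208). It did not pass for summits over 10000 bp from a coding start site or with 1 peak per gene (adjusted p of 0.538 and 0.502). Among all IDR summits 8.947% held this core.
Motif 1 was at 8 summits and in no flank (exact sign test, adjusted p = 0.0172), and in 0.0258% of the weighted windows. A count of 0 among 1546 flanks allows up to 0.194%, at a limit of 3 counts. Motif 1 was at 0.3139% of all IDR summits and in 0.1308% of their flanks. The call was lost in replicate 1 and replicate 2 alone (adjusted p of 0.0625 and 0.0529), with flanks at 500 bp (0.0716), with 1 peak per gene (0.647) and in the strongest 1911 IDR peaks (0.423). The 8 peaks, named after their values were seen, lay in msi, S, SKIP (2 peaks), nmo, Fili, hth and the overlap of twi and CG42741, and ranked from 537 in msi to 6389 in SKIP. msi encodes an RNA-binding protein, S (Star) a factor of EGFR ligand export and nmo a kinase of Wingless signalling. All 8 were found in both replicates.
The 6 motifs lower at the summit all hold G or C. The Pho core GCCAT, a word of the Polycomb recruiter Pleiohomeotic, was in 9.57% of summits, 20.4% of flanks and 12.02% of the weighted windows. The E-box CAGCTG, read by basic helix-loop-helix factors, was in 1.42%, 5.50% and 1.42%, and the CA repeat CACACACA in 0.776%, 4.46% and 1.06%. CACGTG was in 1 summit (0.0647%), 17 flanks and 0.474% of the weighted windows. Its call against the flanks was lost in the pooled list and the strongest 1911 IDR peaks (exact sign tests, adjusted p of 0.0991 and 0.423). The Ets core CCGGAA was in 12 summits and 31 flanks, a call lost over 10000 bp, with 1 peak per gene, in the pooled list and in the strongest 1911 (adjusted p of 0.108, 0.329, 0.294 and 1.000). CCGGAA was in 0.776% of summits and 1.23% of the weighted windows. At all IDR summits GCCAT was in 10.83%, CACACACA in 1.125%, CACGTG in 0.5232% and CCGGAA in 1.282%. CAGCTG likewise had a higher share there than at far intronic summits. The GAGA factor word GAGAGA was in 3.95% of summits, beside 3.597% of all IDR summits. It was in 6.27% of flanks and 2.59% of the weighted windows. Its direction thus depends on which sequence it is set against. In replicate 1 alone the difference was -1.72 points and missed the threshold (exact sign test, adjusted p = 0.0850), as it did in the strongest 1911, in the pooled list, over 10000 bp and with 1 peak per gene, and it turned to 0.259 points within 100 bp of the summit.
The other 11 did not pass. They were the AT repeat TATATATA, the GATA site GATAAG, the DRE TATCGATA, the BEAF-32 core CGATA, the Zelda site CAGGTAG, the nuclear receptor site AGGTCA, the AP-1 site TGANTCA, the Grainyhead site AACCGGTT, the Stat92E site TTCNNNGAA, the CREB site TGACGTCA and the Runx site AACCACA. TATATATA overlaps TATAAA in letters, and its difference was 0.841 points, and 1.19 and 1.20 points in replicate 1 and replicate 2 alone, where it passed (adjusted p of 0.0436 and 0.0408). The site of nuclear receptors, the family of the ecdysone receptor, was in 2.01% of summits and 1.42% of flanks, a difference that did not pass (exact sign test, adjusted p = 0.361).

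Far intronic peaks thinned out with distance from start sites. The position rule is met by 30.8 Mb of sequence, which held 50.2 peaks per Mb (Poisson 95% interval 47.8 to 52.8, for counting error only). Near intronic sequence held 87.4 IDR peaks per Mb, promoters 135.6 and distal intergenic sequence 34.4. The median distance to a coding start site was 10306 bp, with quartiles at 7080 and 16508 bp, and the farthest summit, in hth, was 86665 bp away. At 5000 to 10000 bp there were 69.0 peaks per Mb, at 10000 to 20000 bp 59.3, at 20000 to 50000 bp 43.7 and beyond 50000 bp 3.61.
Sequence near the centromeres held few of the peaks. The 6 Mb next to the centromeric end of each large arm and chromosome 4 together hold 9.58 Mb of the sequence, and 1431 of the 1546 peaks lay elsewhere. Without these stretches, a step added after seeing the data, the density was 67.5 per Mb, and 75.1, 65.5 and 55.7 per Mb at 5000 to 10000, 10000 to 20000 and over 20000 bp. Chromosome 4 held 0 peaks in 292095 bp, which at a limit of 3 counts allows up to 10.3 per Mb. On the other arms, centromeric ends included, the density ran from 43.1 per Mb on 2R and 43.2 on 3R through 51.5 on 3L and 59.8 on 2L to 61.2 on X. The intervals of arms next to each other in this order overlap. Those of 2R (37.6 to 49.1) and 3R (39.0 to 47.75) end below those of 2L (53.0 to 67.3) and X (55.0 to 68.0). The part of read placement in repeats was not tested.
First introns held more than later ones. Sequence in a first intron of a coding transcript had 80.9 peaks per Mb (75.2 to 86.9) and later introns 36.5 (34.0 to 39.2). Away from the centromeric ends these were 89.95 and 54.5, and at equal distance the order stayed, with 100.1 against 54.9 at 5000 to 10000 bp, 81.6 against 56.7 at 10000 to 20000 bp and 69.0 against 50.5 beyond. Summits in first and later introns had 69.6% and 69.7% A or T and held the TATA hexamer in 25.3% and 23.8%. The gap between exons around a summit had a median of 15756 bp, and 43 summits were under 200 bp from an exon edge. For 1000 peaks (64.7%) the nearest coding start site was that of a host gene, and for 546 it belonged to another gene.
The peaks also lay near other IDR peaks. The median distance to the next IDR summit was 2066 bp, against 3342 bp for promoter peaks, 1728 bp for near intronic and 1923 bp for distal intergenic ones. Within 5000 bp, 75.1% had another summit. No far intronic summit was closer than 199 bp to another IDR summit, and promoter, near intronic and distal intergenic peaks had the same minimum.

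Of 2039 genes with sequence that meets the rule, 514 held at least 1 far intronic peak (25.2%), among them 483 of 1847 protein-coding genes (26.2%). The median eligible sequence was 17.05 kb in coding genes with a peak and 3.52 kb in those without. Peaks were concentrated in some of the 514 genes. There were 202 genes with 1 peak, 212 with 2 to 4 and 100 with 5 or more, of which 23 had 10 or more. The 10 genes with the most peaks held 175 of them (11.3%) in 2.96% of the sequence.
kirre, Snoo and Tet each held 22. Counts per replicate for genes and gene lists are among its strongest 7645 peaks. kirre encodes an immunoglobulin-type adhesion protein of myoblast fusion and spans X from 2740384 to 3134532. It had 21 peaks among the strongest 7645 of replicate 1 and 24 among those of replicate 2, in 232.7 kb of eligible sequence or 94.6 per Mb. Snoo, on 2L from 7891187 to 7984196, had 22 and 17 in the replicates and 292.1 per Mb. Tet, whose product is a dioxygenase of methylated cytosine, on 3L from 2786207 to 2879158, had 24 and 20 and 334.4 per Mb. Tet and Snoo were thus denser than kirre, whose interval of 59.3 to 143.1 per Mb does not reach theirs.
SKIP, which encodes a partner of the Shal potassium channel, held 19 peaks (18 and 17 in the replicates). hth, the gene of the Hox cofactor Homothorax, also held 19 (16 and 19). headcase (heca), a gene of imaginal cells, held 16 (17 and 14). The counts of the IDR list lie within 3 of both replicates for these 3 genes.
The planar polarity genes fz, a Wnt receptor gene, and ds, an atypical cadherin gene, held 14 each, with 17 and 12 in the replicates for fz and 14 and 11 for ds. plum, which encodes an immunoglobulin protein of neurons, held 14 (14 and 13) and cv-c 13 (13 and 9). Of the 10 genes, Snoo, Tet, SKIP, heca, fz, ds, plum and cv-c had fewer peaks in replicate 2 than in replicate 1, and kirre and hth had more.

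**Figure D4:**
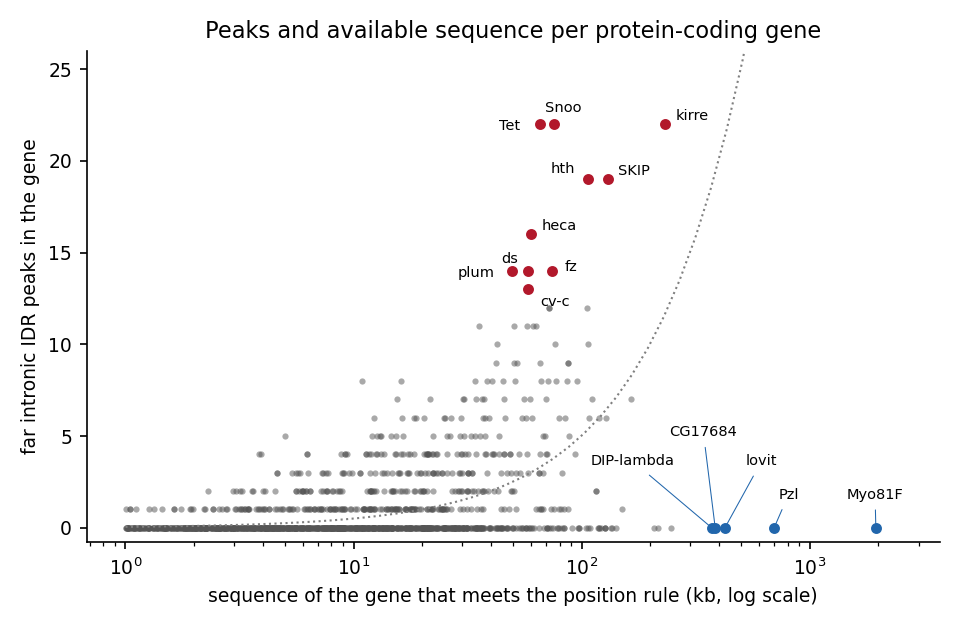
Far intronic peaks per protein-coding gene (vertical) against the sequence of the gene that meets the position rule in kb (horizontal, log scale), for genes with at least 1 kb of it. Red points are the 10 genes with the most peaks, blue points the 5 with the most sequence and no peak, and the dotted line is the mean density of 50.2 per Mb; Snoo and Tet, with 22 peaks, lie far above it and Myo81F far below.

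The genes with the most sequence and no peak lie next to centromeres. Myo81F, an unconventional myosin gene with 1949 kb of eligible sequence on 3R, Pzl, a Piezo-like channel gene with 698.1 kb on 3R, lovit with 424.9 kb on 3L, CG17684 with 385.1 kb on 2R and DIP-lambda with 371.8 kb on 2R had 0 peaks in the IDR list, among the strongest 7645 of each replicate and in the pooled list. At a limit of 3 counts, a count of 0 allows up to 1.54 per Mb in Myo81F and 8.07 per Mb in DIP-lambda. Chromatin state and mappability were not measured, and their part was not tested. Of the 128 protein-coding genes with over 50 kb of eligible sequence, 54 had no peak.
Many genes with a far intronic peak also had a promoter peak of their own. An IDR summit lay within 500 bp of a start site of 202 of the 483 hosting coding genes (41.8%, Wilson 95% interval 37.5 to 46.3) and of 282 of the 1364 without one (20.7%, 18.6 to 22.9). In the group of genes with the most eligible sequence, 12.4 kb or more, these shares were 43.4% and 11.6%, and in the group with the least, up to 2.47 kb, 36.0% of 25 genes and 23.9% of 591. Peaks of one gene share its chromatin, so no test is given.

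Lists of genes of the signalling pathways that pattern the body had 121.0 to 236.1 far intronic peaks per Mb. All coding genes had 50.2 per Mb, and 26.2% of them held a peak. That share rises with eligible sequence: among coding genes with 12.4 kb or more, 297 held a peak and 319 did not. The pathway lists had means of 15.6 to 20.4 kb per gene. All gene lists are described by counts, with no test, and intervals are for counting error. Without chromosome 4 and the centromeric ends, these pathway lists had 128.5 to 237.4 per Mb, beside 67.5 for all such sequence. Of 10 genes of Dpp and activin signalling with eligible sequence, 8 held 46 peaks, or 236.1 per Mb (172.8 to 314.9), with 45 and 42 in the replicates. Snoo and dpp led, and without Snoo the density was 200.7 per Mb. Actbeta, the first by alphabet without a peak, lies on chromosome 4 and has 1.08 kb of such sequence.
Hippo and planar polarity genes had peaks in 10 of 13, at 162.0 per Mb, or 151.9 without fz. Their strongest hosts were ex, an upstream Hippo regulator, with 2 peaks, and ds, while app, with 30.4 kb, had none. Wingless and Hedgehog genes had peaks in 10 of 16, at 142.2 per Mb, or 128.5 without fz, whose 14 peaks count in both lists. There the glypican gene dlp held 4 peaks and the receptor gene fz2 held 9, and ci on chromosome 4 had none in 0.173 kb.
Notch pathway genes had peaks in 7 of 9, at 128.5 per Mb, with 3 in N, the receptor gene itself, and 3 in spen, a gene with RNA-binding domains that had 1 in replicate 2. neur, a ubiquitin ligase gene, had none in 3.71 kb. EGFR and Ras genes had peaks in 12 of 17, at 121.0 per Mb. They included pnt with 4 and cic, the repressor below the pathway, with 7.
Insulin, TOR and growth genes had peaks in 4 of 5. The 11 peaks came to 131.2 per Mb, in an interval of 65.5 to 234.8, with 4 each in Myc, the growth factor of transcription, and InR, the insulin receptor gene. Without chromosome 4 and the centromeric ends the list stood at 131.3 (65.6 to 235.0), an interval that holds the 67.5 of all such sequence. rictor had none in 0.0710 kb.

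Lists of regulators of transcription and chromatin and of ecdysone genes had 79.6 to 301.1 per Mb. Their eligible sequence per gene ran from 7.83 kb in chromatin genes to 26.7 kb in ecdysone genes, and was 16.4 kb in homeodomain genes. Ecdysone is the steroid that drives metamorphosis, which is under way in pupae of this age. Of 19 ecdysone response genes, 15 held 55 peaks, or 108.3 per Mb (81.6 to 141.0), with 61 and 50 in the replicates. Eip75B held 8 and Hr4 held 6, but br, the Broad gene, held 0 in 43.98 kb in the IDR list and among the strongest 7645 of both replicates, with 6 only in the longer pooled list.
Chromatin, Polycomb and Trithorax genes had the highest density of the lists shown, 301.1 per Mb (207.3 to 422.9), in 6 of 14 genes. Tet held 22 of their 33 peaks, and the density without it was 251.2 per Mb (125.4 to 449.4). Mi-2 held 3 and Psc 1, while E(bx), a remodeller gene, held none in 0.245 kb.
Zinc-finger and BTB transcription factor genes, taken as 1 list, had peaks in 16 of 35, at 90.5 per Mb, or 79.6 without sbb. The largest count was 11 in sbb, and shn, which acts in Dpp signalling, had 1. Homeodomain and Hox cofactor genes had peaks in 14 of 43, at 79.6 per Mb, with 8 in Antp, the Hox gene Antennapedia, and 2 in NK7.1. abd-A, another Hox gene, had none in 12.8 kb in the IDR list, among the strongest 7645 of each replicate or in the pooled list. Without hth the list stood at 61.9 per Mb. With hth but without chromosome 4 and the centromeric ends it stood at 88.4 (66.8 to 114.9). That interval holds the 67.5 of all such sequence.

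Genes of nerve cell excitability held almost none. Of 48 genes of neurotransmitter and peptide receptors with 834.7 kb of eligible sequence, 1 held a peak, or 1.20 per Mb (0.0303 to 6.68). That was mAChR-B, a muscarinic receptor gene, at rank 6676. The strongest 7645 peaks of replicate 1 had 0 in these genes and those of replicate 2 had 7, or 8.39 per Mb, so their count moves with the replicate while staying under the 50.2 of coding genes.
Of 24 genes of ion channels, 1 held 2 peaks, or 4.32 per Mb (0.524 to 15.6), and each replicate had 2. Both were in Ca-beta, which encodes a subunit of voltage-gated calcium channels, the stronger at rank 545. Ca-alpha1D had none in 9.01 kb.
Adhesion and synaptic partner genes had peaks in 13 of 56, at 30.6 per Mb, and at 22.6 per Mb without kirre. The other strong host was Tl, the Toll receptor gene, with 2 peaks, and beat-Ia had none in 23.4 kb. Within the list, 24 dpr and DIP genes held 0 peaks in 749.0 kb, which at a limit of 3 counts allows up to 4.01 per Mb. They encode paired immunoglobulin proteins of synaptic partners, and DIP-lambda, named above, is not among them. This group was chosen after its values were seen. Replicate 1 likewise had 0, but replicate 2 had 4, and the pooled list held 9 in 2 of the genes. Without chromosome 4 and the centromeric ends the adhesion list stood at 29.9 per Mb and the dpr and DIP genes still at 0, against 67.5 per Mb for all such sequence.
Neural lists were not all low. Axon guidance genes had peaks in 13 of 27, with 22.9 kb of eligible sequence per gene, at 77.7 per Mb (57.3 to 103.0). Without chromosome 4 and the centromeric ends they stood at 88.6 (63.9 to 119.8). That interval holds the 67.5 of all such sequence. Their peaks included 3 in dnt, which encodes a Ryk-type Wnt receptor, and 7 in Sema1a, a semaphorin gene, while comm had none in 0.158 kb. RNA-binding genes of nerve and muscle had peaks in 11 of 18 but spread over 1185 kb, at 25.3 per Mb, with 1 in shep and 3 in msi, and none in bru2. cAMP and learning genes had peaks in 7 of 16, at 24.9 per Mb, with 3 in the phosphodiesterase gene Pde9 (1 in replicate 2) and 1 in Pka-C1, a kinase gene, and none in CaMKII on chromosome 4.

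**Figure D5:**
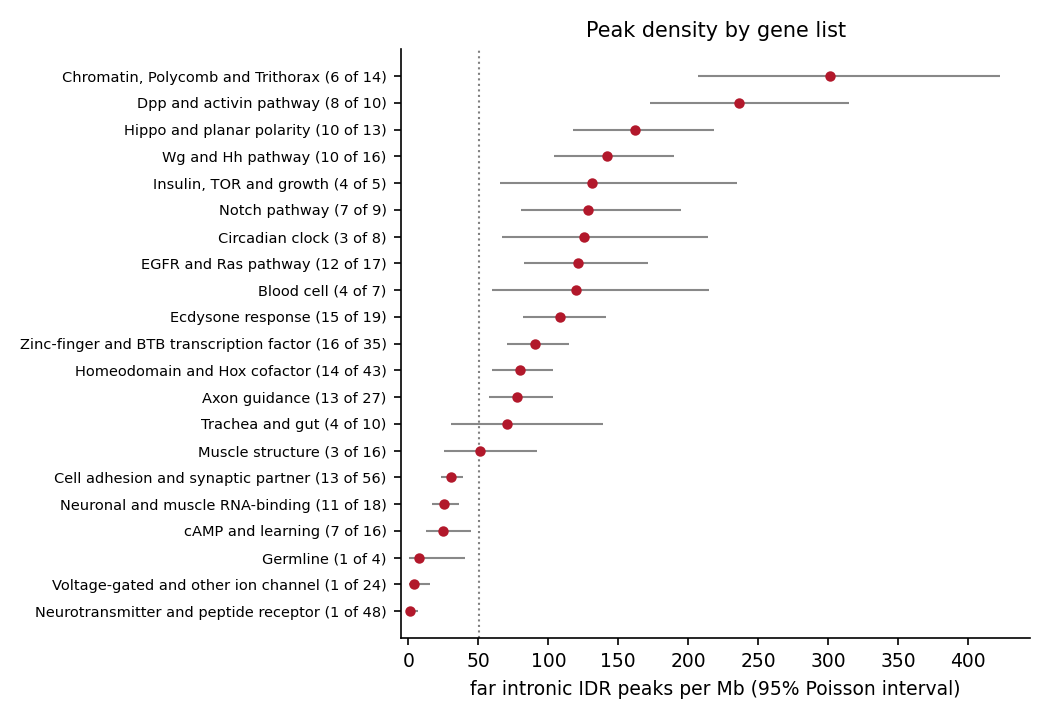
Far intronic peaks per Mb of eligible sequence in each gene list reported here with at least 50 kb of it; points are densities, bars Poisson 95% intervals, the dotted line is the 50.2 per Mb of all coding genes, and the numbers beside each name are the genes with a peak of those that could have one. Chromatin and Dpp genes stand highest at 301.1 and 236.1, and receptor genes lowest at 1.20. Without chromosome 4 and the centromeric ends, all eligible sequence held 67.5 per Mb, which is not drawn.

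The remaining lists held few peaks or little sequence. Blood cell genes had peaks in 4 of 7, at 120.0 per Mb, with 5 in ush, a GATA cofactor gene. Without chromosome 4 and the centromeric ends they stood at 121.5 (60.7 to 217.4), an interval that holds the 67.5 of all such sequence. The 4 peaks of pnt count here and in the EGFR list. Circadian genes had them in 3 of 8, at 125.2 per Mb, but 11 of the 13 were in nmo, and the density without it was 49.5. wdb, a phosphatase subunit gene on the same list, had 1. Trachea and gut genes had them in 4 of 10, at 70.7 per Mb, with 4 in the glypican gene dally and 1 in dysf.
Muscle structure genes had peaks in 3 of 16, at 51.3 per Mb, of which twi, the Twist gene of mesoderm, held 7 and Zasp52 held 2. The density without twi was 22.2. With twi but without chromosome 4 and the centromeric ends it was 56.7. Among fat body genes foxo held 1 peak and among germline genes Sxl held 1, at 49.5 and 7.28 per Mb, and AGO3, with 126.0 kb of the germline sequence, held none. Without chromosome 4 and the centromeric ends the germline density was 87.7 per Mb, from the same 1 peak in 11.4 kb. Glial genes had 0 in 38.3 kb, with 1 in replicate 1. The 1 cuticle gene with eligible sequence had 0 in 0.460 kb, and none of 40 ribosomal protein genes has any.

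Peaks just inside and just outside the rule were as follows. The 203 far intronic peaks at 5000 to 6000 bp from a coding start site had 68.95% A or T at the summit and 53.5% in the flanks, and 25.1% held the TATA hexamer. The 222 near intronic peaks just outside, at 4000 to 5000 bp, had 69.3%, 53.4% and 28.4%. Their median signal percentiles were 47.7 and 54.5. Only 6 far intronic summits were 500 to 600 bp from a start site of any gene, with 72.7% A or T.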

How the data were processed

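The authors' deposited peak lists of each replicate, of both pooled and thresholded on IDR, on dm6 per the labels, were used; the caller is not given in the sources used here. The deposited signal ranked peaks within a list, and the deposited −log10 q-value, at its ceiling in every IDR peak, ranked none. Summits were classed with Ensembl release 115 and sequence was read from the Release 6 assembly. Flanks were given as many word positions as the summit window. Python 3.11.15, scipy 1.17.1 and statsmodels 0.14.6 were used. Tests were exact sign tests and linear models with errors clustered by 100 kb, with Benjamini-Hochberg adjustment and a threshold of 0.05, and were tested on simulated data. Of 879 listed gene symbols, 840 matched. Named genes were the hosts of the 15 strongest peaks, the 10 with the most peaks, the 5 with the most sequence and none, and, per list, the hosts of its strongest peaks and the first by alphabet without one. The members, lists, motifs and tests were chosen with earlier results of these data known. Windows weighted to A and T content, lists without their leading gene and sequence without centromeric ends were added after seeing the data. No column was left unassigned. The values of 1 gene list are not reported here.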

Additional observations from a re-analysis of the deposited data

How the results depend on the processing

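Over all alternatives, 214 recomputed values bear on the main results. Of these, 179 kept their side of the threshold, stayed within their error or, for counts, within a fixed ratio. Another 21 moved, 8 no longer passed and 6 changed sign with a pass before or after. Other changes of sign are counted among the 179 or the 21. One is the TATA share against promoter peaks, at -0.177 points and, with 1 peak per gene, 1.43. By construction, the strongest 1911 IDR peaks, the pooled list, 10000 bp and 1 peak per gene changed the number of peaks to 315, 6339, 805 and 485. Hosting genes became 211, 782 and 282 under the first 3, and densities 10.2, 206.0 and 40.2 per Mb. With 3000 bp the density was 53.8, and without chromosome 4 and centromeric ends 67.5. Keeping the strongest peak of each gene, which raises signal by its construction, turned the differences in signal percentile from promoter, near intronic and distal intergenic peaks to 9.62, 10.3 and 13.3 points. It also took the difference in summit A and T content from distal intergenic peaks to -0.548. In the strongest 1911, these content differences were -0.0295 from promoter and -0.0141 from distal intergenic peaks, the contrast with the flanks differed by -1.44 from the latter, and signal differed by -1.78 from near intronic peaks. In the pooled list content differed by -0.0591 from near intronic peaks and the TATA share by 1.51 from promoter peaks (n = 6339, adjusted p = 0.0369). The share found in both replicates exceeded that of promoter peaks by 4.59 points, by 0.359 in the strongest 1911 and by 1.55 in the pooled list; against distal intergenic peaks it was 1.87, -0.635 and -2.27. The cause was not tested. Over the lists of 1 replicate, signal against promoters ran from -6.35 to -1.34, and content from 0.153 to 2.72 against promoter, 0.454 to 1.19 against near intronic and -1.06 to -0.773 against distal intergenic peaks. Motifs higher at the summit numbered 3 in the strongest 1911 and with 1 peak per gene, and those lower 3 in the strongest 1911 and the pooled list. Words past the threshold numbered 3 in the strongest 1911. GAGAGA differed by 0.259 points with windows reaching 100 bp to each side. Depth is unknown, so what it limits cannot be stated. No paired analysis was possible because both replicates belong to 1 group.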
